A study of Mus musculus with 20 samples.

Results

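Pycard, Casp1, Casp4, Nlrp3, Nod1, Nod2 and Ripk2 encode the core of the inflammasome and of the NOD-like sensing of bacterial wall fragments. The array carried 8 probes for these 7 genes among 41174 probes in all, found by gene name, with Nlrp3, Nod1 and Nod2 listed under the older names Cias1, Card4 and Card15. Pycard had 2 probes and every other gene had 1. Each probe was read in whole trachea from 20 mice in 4 groups of 5: uninjured wild-type C57/Bl6 mice, uninjured Myd88KO mice, and wild-type and Myd88KO mice collected 3 days after instillation of 2% polidocanol, a detergent that strips the tracheal surface epithelium. The labels gave an age of 4 months for all mice and no sex, and the study's methods describe adults of both sexes. Myd88 was missing from every cell of the knockout mice, which had been back-crossed to the wild-type strain and bred apart from the wild-type colony, so genotype and colony cannot be told apart.

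Inflammasomes are protein platforms that assemble in the cytosol when a sensor such as Nlrp3 meets its trigger. Through the adaptor Pycard they bring together Casp1, a protease that matures the cytokines Il1b and Il18 and cuts the pore-forming protein Gsdmd, and Casp4 reaches the same pore protein after binding cytosolic lipopolysaccharide. Nod1 and Nod2 bind fragments of bacterial peptidoglycan and act through the kinase Ripk2 to switch on NF-kB. Myd88 is the adaptor of most Toll-like receptors and of the receptors for Il1b and Il18, so it stands beside these sensors and downstream of their products.

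RefSeq promoter windows on GRCm38.p6, 250 bases before to 50 bases after a transcription start, were held for 6 of the 7 genes, in 9 windows. They are shown because NF-kB is the factor that Myd88, Nod1 and Nod2 all signal to. Windows were searched on both strands for the NF-kB consensus, for the interferon response core (GAAA, any 2 bases, GAAA) and for the interferon-gamma activated site TTCNNNGAA, and matches are in capitals. The windows of Casp4, Nlrp3 and Nod1 that held a match, and that of Nod2, which held none, read 5′ to 3′ on the gene's strand:
Casp4, chr9:5308599-5308898, plus strand: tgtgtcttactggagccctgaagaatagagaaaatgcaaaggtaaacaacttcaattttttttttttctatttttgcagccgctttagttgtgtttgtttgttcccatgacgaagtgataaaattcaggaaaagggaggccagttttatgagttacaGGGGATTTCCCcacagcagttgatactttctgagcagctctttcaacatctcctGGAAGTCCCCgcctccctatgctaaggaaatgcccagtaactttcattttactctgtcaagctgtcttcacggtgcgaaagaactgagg
Nlrp3, chr11:59541319-59541618, plus strand: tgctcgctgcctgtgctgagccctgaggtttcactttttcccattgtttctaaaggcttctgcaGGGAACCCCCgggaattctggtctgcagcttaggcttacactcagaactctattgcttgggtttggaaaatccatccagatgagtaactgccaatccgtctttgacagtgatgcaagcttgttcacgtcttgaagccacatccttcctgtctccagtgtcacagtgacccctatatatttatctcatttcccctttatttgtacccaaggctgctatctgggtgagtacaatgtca
Nod1, chr6:54971612-54971911, minus strand: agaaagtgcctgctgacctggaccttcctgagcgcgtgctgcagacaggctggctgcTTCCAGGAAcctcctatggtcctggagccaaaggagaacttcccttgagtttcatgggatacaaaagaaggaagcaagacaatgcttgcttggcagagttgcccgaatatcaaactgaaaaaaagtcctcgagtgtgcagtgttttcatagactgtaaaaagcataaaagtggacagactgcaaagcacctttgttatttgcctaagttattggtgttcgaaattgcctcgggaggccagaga
Nod2, chr8:88647097-88647396, plus strand: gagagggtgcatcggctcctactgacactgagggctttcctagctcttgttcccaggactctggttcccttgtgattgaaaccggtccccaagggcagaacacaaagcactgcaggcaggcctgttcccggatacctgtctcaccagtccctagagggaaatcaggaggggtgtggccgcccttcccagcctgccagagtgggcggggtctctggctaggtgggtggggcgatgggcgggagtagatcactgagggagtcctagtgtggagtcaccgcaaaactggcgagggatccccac
In Casp4 the capitals mark 3 matches to the NF-kB consensus, of which GGGGATTTCC and GGGATTTCCC overlap and GGAAGTCCCC stands apart, and in Nlrp3 they mark the single match GGGAACCCCC. In Nod1 they mark TTCCAGGAA, a match to TTCNNNGAA. Of all 32851 windows, 8.46% held the NF-kB consensus, 3.44% held the interferon response core and 8.3% held TTCNNNGAA. Among the members' 9 windows 3, from Casp4 and Nlrp3, held the NF-kB consensus, and the 2 windows of Casp4 overlap almost wholly. The interferon response core was in 0 of them and TTCNNNGAA in 1. The windows of Pycard and Casp1, and the other windows of Nlrp3 and Nod1, are not shown and also held no match. These are matches of letters, and no binding was measured.

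Levels are log2 intensities relative to the 75th percentile of the same array, so 0 marks a probe as bright as that percentile. They can be compared between arrays for 1 probe but not, as amounts of RNA, between probes. Summed levels, shares of a sum and ranks of brightness over several probes describe signal only. As the files place them, on a genome build that is not stated, the probes lay on chromosome 7 at 124089265 to 124089344 (both Pycard probes, which overlap), chromosome 9 at 5223467 to 5223969 (Casp1) and 5253886 to 5253945 (Casp4), chromosome 11 at 59646597 to 59646656 (Nlrp3), chromosome 6 at 54887383 to 54887442 (Nod1), chromosome 8 at 87280632 to 87280686 (Nod2) and chromosome 4 at 16059975 to 16065245 (Ripk2). Casp1 and Ripk2 span 503 and 5271 bases there, more than an array probe is long. These positions are not those of the promoter windows above, which are on GRCm38.p6.

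A probe was tested when 10 or more of the 20 arrays had it well above background, which held for 26063 probes. Of the 8 probes, 7 passed. Pycard, Casp1, Casp4, Nod1 and Nod2 stood well above background on all 20 arrays and Nlrp3 on 18. Ripk2 did so on 7 only and was not tested. The labelled tissue was borne out by markers of basal, secretory and ciliated epithelium, cartilage and smooth muscle, all of which were well above background, although markers of skeletal muscle, thyroid and fat were also detected. Myd88 itself had 1 probe, and whether it reads sequence that the knockout removed is not given in the sources used here, so it does not check the genotype labels. Its level was 2.08 ± 0.14 (SD, n = 5) in uninjured wild-type, 1.86 ± 0.17 in uninjured Myd88KO, 2.65 ± 0.18 in injured wild-type and 1.89 ± 0.26 in injured Myd88KO tracheas. Injured Myd88KO was 0.77 below injured wild-type on the log2 scale, with an adjusted p of 0.00824 by limma, and uninjured Myd88KO was 0.21 below uninjured wild-type with an adjusted p of 1.00. One array stood apart from its label. Over the 844 probes that were higher after injury in wild-type mice, the median change from the uninjured mean of the same genotype was 1.23 to 1.63 on the injured wild-type arrays, 1.34 and 1.29 on replicates 2 and 4 of the injured Myd88KO group, 0.46 and 0.35 on replicates 1 and 3, and -0.14 on replicate 5. Some of the results that rest on this last array are also given without it. The 844 probes were chosen on the wild-type arrays, so the values of those arrays are a description.

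None of the 7 tested probes passed the threshold, an adjusted p under 0.01 by limma, in any of the 5 comparisons. After injury the levels of 6 of the 7 were higher in wild-type mice by 0.05 to 0.49 on the log2 scale and Casp1 was lower by 0.47, all short of the threshold. The lowest adjusted p was that of Nod1 after injury in wild-type tracheas (0.0843 by limma), where it was higher on 5 of 5 slides. Between genotypes the lowest unadjusted p-values were those of Nod1 among injured (0.0102 by limma) and Nod2 among uninjured tracheas (0.0106), each lower in Myd88KO on 5 of 5 slides. In RNA from whole trachea, fewer cells of a type and less RNA per cell cannot be told apart.

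**Figure D1:**
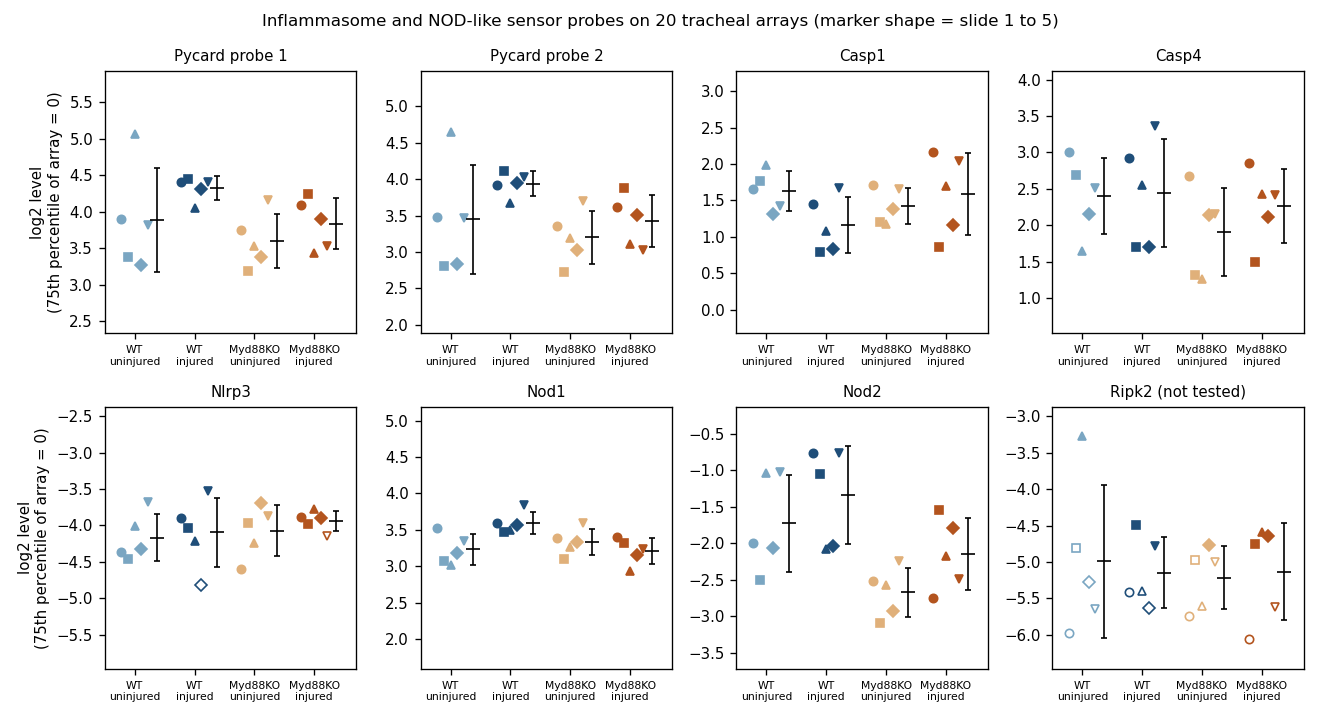
Log2 level (75th percentile of the array = 0) of the 8 probes on each of the 20 arrays, 1 panel a probe with its own axis of equal length. Marker shapes stand for slides 1 to 5, open markers for arrays where the probe was not well above background, and bars for the group mean ± SD (n = 5). Between groups that differ in genotype or injury alone, only those of Nod1 after injury do not overlap, where all Myd88KO arrays (up to 3.40) lie below all wild-type arrays (from 3.47), and uninjured wild-type replicate 3 stands high for Pycard and Ripk2.

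Nlrp3, the sensor, was dim and flat. It stood at -4.36, -4.46, -4.01, -4.32 and -3.68 in uninjured wild-type tracheas (replicates 1 to 5) and at -3.89, -4.04, -4.21, -4.81 and -3.53 in injured ones. Nlrp3 levels in Myd88KO tracheas were -4.60, -3.96, -4.24, -3.69 and -3.87 without injury and -3.89, -3.99, -3.78, -3.90 and -4.14 after it. All 4 groups overlapped. Injury differed by 0.07 ± 0.22 (SE) in wild-type (adjusted p = 0.87) and by 0.13 ± 0.22 in Myd88KO tracheas (adjusted p = 0.785). The 95% intervals of all 5 differences lay within a 2-fold change in either direction. Injured wild-type replicate 4 and injured Myd88KO replicate 5 were not well above background for this probe.

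Pycard, the adaptor that links sensor to protease, was higher on average after injury in both genotypes, short of the threshold. Its first probe read 3.89, 3.38, 5.06, 3.27 and 3.82 in uninjured wild-type tracheas and 4.40, 4.45, 4.05, 4.32 and 4.40 in injured ones. In Myd88KO tracheas Pycard read 3.75, 3.19, 3.54, 3.38 and 4.16 without injury and 4.09, 4.25, 3.43, 3.90 and 3.53 after it. The injured wild-type arrays lay above all uninjured wild-type arrays but replicate 3, which was the highest of the 20. The second probe, which shares bases with the first, followed it closely and ranged from 2.72 to 4.64. Injury differed by 0.44 ± 0.27 (SE) on the first probe and 0.49 ± 0.28 on the second in wild-type tracheas (adjusted p = 0.321 and 0.279), and by 0.24 ± 0.27 and 0.23 ± 0.28 in Myd88KO tracheas (adjusted p = 0.68 and 0.698). Without uninjured wild-type replicate 3, the wild-type differences were 0.74 and 0.79 with adjusted p of 0.028 and 0.0242, still short of the threshold. Among injured tracheas, Myd88KO was lower than wild-type on 5 of 5 slides, by 0.20 to 0.88 on the first probe, with a mean difference of -0.49 ± 0.27 (adjusted p = 0.48).

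Casp1, the effector protease, was the only tested member that was lower on average after injury in wild-type tracheas. It read 1.66, 1.77, 1.99, 1.31 and 1.42 in uninjured wild-type tracheas and 1.45, 0.79, 1.07, 0.84 and 1.67 in injured ones, lower on 4 of 5 slides. Casp1 in Myd88KO tracheas read 1.71, 1.21, 1.18, 1.38 and 1.66 without injury and 2.16, 0.86, 1.70, 1.17 and 2.04 after it. The groups overlapped throughout. The injury difference was -0.47 ± 0.24 (SE) in wild-type (95% interval -0.97 to 0.03, adjusted p = 0.222) and 0.16 ± 0.24 in Myd88KO tracheas (adjusted p = 0.768). On each of the 5 slides the injured Myd88KO array was higher than the injured wild-type array, by 0.07 to 0.71, and the mean difference was 0.42 ± 0.24 (adjusted p = 0.488). The difference between the injury responses was 0.62 ± 0.34 (adjusted p = 0.525), positive on 5 of 5 slides. It was 0.51 without injured Myd88KO replicate 5 (adjusted p = 0.584).

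Casp4, the protease that senses lipopolysaccharide, varied more within groups than between them. Its levels were 3.00, 2.69, 1.65, 2.15 and 2.51 in uninjured wild-type tracheas and 2.92, 1.70, 2.56, 1.70 and 3.36 in injured ones. Casp4 in Myd88KO tracheas stood at 2.67, 1.32, 1.27, 2.14 and 2.16 without injury and at 2.86, 1.50, 2.43, 2.11 and 2.42 after it. All 4 groups overlapped widely. The injury difference was 0.05 ± 0.36 (SE) in wild-type (adjusted p = 0.948) and 0.35 ± 0.36 in Myd88KO tracheas (adjusted p = 0.631). Uninjured Myd88KO was lower than uninjured wild-type on 5 of 5 slides, by 0.01 to 1.37, with a mean difference of -0.49 ± 0.36 (95% interval -1.23 to 0.26, adjusted p = 1.00).

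Nod1, the sensor of the peptidoglycan of mainly Gram-negative bacteria, varied little within groups, with SDs of 0.15 to 0.21. It read 3.53, 3.07, 3.02, 3.19 and 3.35 in uninjured wild-type tracheas and 3.59, 3.47, 3.50, 3.57 and 3.84 in injured ones. Nod1 in Myd88KO tracheas read 3.39, 3.10, 3.26, 3.33 and 3.59 without injury and 3.40, 3.32, 2.94, 3.16 and 3.24 after it. The injured Myd88KO arrays all lay below the injured wild-type arrays. In wild-type tracheas Nod1 was higher after injury on 5 of 5 slides, by 0.06 to 0.49, and the mean difference of 0.36 ± 0.13 (SE, 1.29-fold) had an unadjusted p of 0.0141 and an adjusted p of 0.0843 by limma. In Myd88KO tracheas it was -0.12 ± 0.13 (adjusted p = 0.663), with 2 of 5 slides higher. Injured Myd88KO was below injured wild-type by 0.15 to 0.60 on each of the 5 slides, and the mean difference was -0.38 ± 0.13 (1.30-fold lower, 95% interval -0.66 to -0.10, adjusted p = 0.232). The difference between the injury responses was -0.49 ± 0.19 (unadjusted p = 0.0193, adjusted p = 0.412), negative on 5 of 5 slides. With slide as a block in the same fit, the adjusted p was 0.0294 for injury in wild-type, 0.113 for injured Myd88KO against wild-type and 0.273 for the difference between responses. Within the slides of each of the 2 scan days, the injured Myd88KO arrays were lower by a mean of 0.37 and 0.40. Without injured Myd88KO replicate 5 the difference between injured groups was -0.39.

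Nod2, the sensor of muramyl dipeptide, differed most between genotypes in size. It read -2.001, -2.50, -1.04, -2.07 and -1.02 in uninjured wild-type tracheas and -0.76, -1.04, -2.07, -2.04 and -0.76 in injured ones. Nod2 in Myd88KO tracheas read -2.52, -3.09, -2.57, -2.92 and -2.24 without injury and -2.75, -1.55, -2.17, -1.79 and -2.49 after it. The highest uninjured Myd88KO array lay above the lowest uninjured wild-type array, so these groups overlapped, but on each slide the Myd88KO array was the lower, by 0.52 to 1.53. The gap of 1.53 was on slide 3, with the uninjured wild-type replicate that also stood high for Pycard. The mean difference was -0.94 ± 0.33 (SE, 1.92-fold lower, 95% interval -1.64 to -0.25), with an unadjusted p of 0.0106 and an adjusted p of 0.49 by limma. Under the 32 alternatives, which include leaving out each array, this difference ran from -1.14 to -0.69 and never passed. Among injured tracheas it was -0.82 ± 0.33 (1.76-fold lower, adjusted p = 0.304), lower on 4 of 5 slides, and -0.73 without injured Myd88KO replicate 5. That difference was unlike on the 2 scan days, at -0.12 over the 3 slides of the first day and -1.86 over the 2 slides of the second. With scan day as a block in the fit, the adjusted p of this difference was 0.219. Whether the genotype difference itself changed with the day was not tested. Injury differed by 0.39 ± 0.33 in wild-type (adjusted p = 0.493) and by 0.52 ± 0.33 in Myd88KO tracheas (adjusted p = 0.414), and the responses differed by 0.13 ± 0.47 (adjusted p = 0.941).

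**Figure D2:**
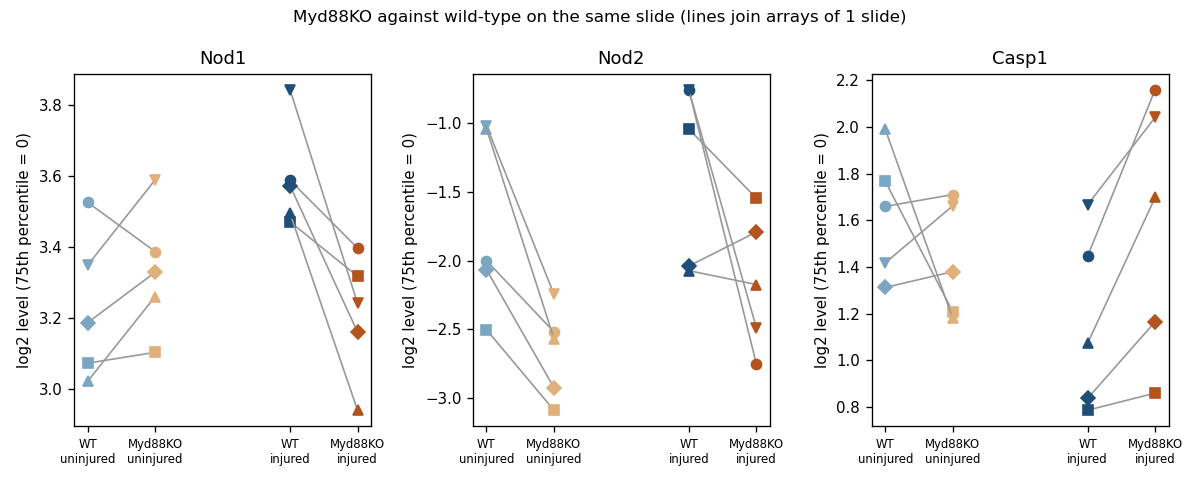
Log2 level (75th percentile of the array = 0) of Nod1, Nod2 and Casp1, with lines joining the wild-type and Myd88KO arrays of 1 slide (marker shape), uninjured on the left of each panel and injured on the right. All 5 lines fall for Nod1 after injury and for Nod2 without injury, and all 5 rise for Casp1 after injury.

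Ripk2, the kinase below both NOD sensors, was near background. Its levels ranged from -5.97 to -3.27 in uninjured wild-type, -5.74 to -4.76 in uninjured Myd88KO, -5.64 to -4.49 in injured wild-type and -6.06 to -4.58 in injured Myd88KO tracheas. It was well above background on 1, 1, 2 and 3 arrays of these groups in that order, so no difference was tested under the filter. Without the filter its 5 differences lay between -0.22 and 0.24, and the lowest unadjusted p was 0.6 by limma. The highest Ripk2 value was again that of uninjured wild-type replicate 3.

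**Figure D3:**
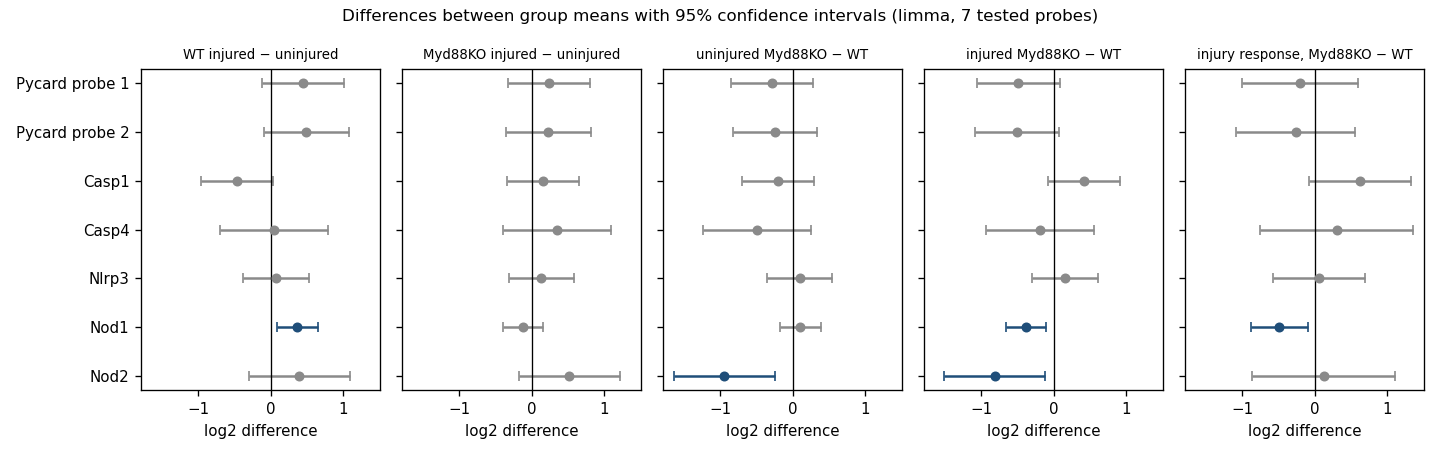
Log2 difference between group means (x axis) for the 7 tested probes (y axis) in the 5 comparisons, with 95% confidence intervals from limma before any adjustment. Dark points mark an unadjusted p under 0.05, which were Nod1 in 3 comparisons and Nod2 in 2, and no point passed an adjusted p of 0.01.

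In wild-type tracheas 0 of the 7 member probes passed the threshold after injury, where limma called 5.26% of all tested probes. At an unadjusted p under 0.05 there was 1, Nod1, against 26.4% of all tested probes, and the methods' one-way test also called none at its threshold and found 1 at an unadjusted p under 0.05. In Myd88KO tracheas 0 of 7 passed after injury, with 0.376% of all probes called, and none had an unadjusted p under 0.05 by limma or by the one-way test, against 19.5% of all probes by limma. Between uninjured genotypes 0 of 7 passed, with 0.384% of all probes called, and 1 (Nod2) had an unadjusted p under 0.05 by limma and by the one-way test, against 5.59% of all probes by limma. Between injured genotypes 0 of 7 passed, with 0.38% of all probes called. There, 2 (Nod1 and Nod2) had an unadjusted p under 0.05 by limma, against 12.5% of all probes, and 3 (Nod1 and both Pycard probes) did by the one-way test. For the difference between injury responses no probe of the array was called, 0% of those tested, and 1 member (Nod1) had an unadjusted p under 0.05, against 10.4% of all probes. Of the 7 member probes 1 had groups that did not overlap, Nod1 between injured genotypes, where 1.96% of all probes did not overlap. None did so after injury in wild-type (12.6% of all probes) or Myd88KO tracheas (3.45%), or between uninjured genotypes (2.51%).

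The 95% intervals, before any adjustment, give the size of change in measured signal that these arrays leave possible. The dim signal of Nlrp3 limits what its intervals say about its RNA. For injury in wild-type tracheas, 4 of the 7 intervals lay within a 2-fold change in either direction, and those of both Pycard probes and Nod2 reached beyond it on the higher side. For injury in Myd88KO tracheas 5 did, the exceptions being Casp4 and Nod2. Between uninjured genotypes 5 did, again all but Casp4 and Nod2. Between injured genotypes 4 did, all but both Pycard probes and Nod2. For the difference between responses 2 did, Nlrp3 and Nod1.

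Some other genes of these pathways passed the threshold. Among 57 genes of 5 lists around the members, 53 had a probe and 46 were tested. After injury in wild-type tracheas 4 rose and 1 fell, where limma called 5.26% of all tested probes. At an unadjusted p under 0.05 there were 21 of the 46, beside 26.4% of all tested probes. In Myd88KO tracheas 0 of the 46 passed after injury, where 0.376% of all probes were called. At an unadjusted p under 0.05 by limma there were 12 (19.5% of all probes). None passed between uninjured genotypes (6 unadjusted, beside 5.59%), between injured genotypes (14, beside 12.5%) or for the difference between responses (10, beside 10.4%). The median difference over the 46 genes after injury was 0.24 in wild-type and 0.16 in Myd88KO tracheas, beside 0.22 and 0.20 over the 6 tested member genes and 0.00 and -0.07 over all tested probes. The genotype difference in the injury response was not called for any of these genes.

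Gsdmd, the pore protein that Casp1 and Casp4 cut, was 1 of the 6 substrates and outputs tested and the only one to pass. It read 0.22, 0.17, -0.08, 0.33 and -0.02 in uninjured and 1.32, 1.07, 1.39, 1.34 and 1.42 in injured wild-type tracheas, a rise of 1.18 ± 0.20 (SE) with an adjusted p of 0.00112. Injured Myd88KO tracheas read 0.59, 1.15, 0.98, 1.31 and -0.12, and the difference from uninjured Myd88KO of 0.69 ± 0.20 missed the threshold (adjusted p = 0.0612). Without replicate 5, it was 0.92 and passed (adjusted p = 0.000707). Il1b, the cytokine that Casp1 matures, read -0.04, -2.66, -3.05, -2.10 and -2.65 in uninjured and 2.19, 0.43, 2.08, -0.16 and 4.16 in injured wild-type tracheas. Its difference of 3.84 ± 1.07 was the largest of the list and missed the threshold (adjusted p = 0.0228). Il1b in injured Myd88KO tracheas spread from -4.79 (replicate 5, not well above background) to 2.45. Il18, the other cytokine substrate, differed by 0.17 ± 0.45 in wild-type and 0.44 ± 0.45 in Myd88KO tracheas (adjusted p = 0.852 and 0.631). Uninjured wild-type replicate 3 read 2.12 for Il18 and the other uninjured wild-type arrays -1.38 to -0.79, and without it the wild-type difference was 0.80 (adjusted p = 0.0154), still short of the threshold. Ninj1, which ruptures the membrane after pore formation, differed by 0.99 in wild-type (adjusted p = 0.0238) and -0.01 in Myd88KO tracheas. Il1a, named after its values were seen, was the only gene of the list to differ downwards in wild-type tracheas, by -1.85 ± 0.71 (adjusted p = 0.0959). Outside uninjured wild-type tracheas the group means of Il1a were as low as those of Ripk2, which was near background. The size of this difference therefore says little about Il1a RNA.

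Of 4 other inflammasome sensors tested among 12 listed, 1 rose. Mefv, the gene of pyrin, read -2.005, -2.81, -3.71, -3.24 and -3.05 in uninjured and 1.32, -0.39, 0.05, -0.80 and 1.98 in injured wild-type tracheas, a rise of 3.40 with an adjusted p of 0.00194. In Myd88KO tracheas it differed by 2.77 (adjusted p = 0.0231), or by 3.19 without replicate 5 (adjusted p = 0.00268). Naip2, Naip5 and Nlrp10 differed by 0.76, 0.42 and -0.81 in wild-type tracheas and did not pass. Their means in Myd88KO tracheas were -1.35, -2.63 and -3.69 without injury and -1.06, -1.76 and -3.39 after it, and none passed. Of these genes only Naip5 had Myd88KO groups that did not overlap, as did 3.45% of all tested probes. The wild-type Nlrp10 difference rested on uninjured wild-type replicate 3, at 0.71 against -3.70 to -3.13 on the other 4 arrays, and was 0.00997 without it. Nlrc4, Nlrp6, Nlrp12, Naip1 and Naip6 were not well above background on enough arrays to be tested, and Aim2 and Nlrp1a were not on any.

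Irf8, a transcription factor of myeloid cells that drives Naip genes, rose by 0.99 (adjusted p = 0.00214) as 1 of 13 activators and regulators tested, and was higher by 0.42 in Myd88KO tracheas (adjusted p = 0.223). Its second probe differed by 0.97 in wild-type (adjusted p = 0.041). Pstpip1, a partner of pyrin, Gbp2, a guanylate-binding protein, and Panx1, a channel, differed by 1.34, 0.60 and 0.50 in wild-type tracheas (adjusted p = 0.0176, 0.0247 and 0.026) and did not pass. Of the 20 genes of NOD-RIPK2 signalling tested, Slc15a3, a transporter that carries muramyl dipeptide into the cytosol, rose by 3.54 (adjusted p = 0.00178). It differed by 1.08 in Myd88KO tracheas, where replicates 2 and 4 read -0.10 and -0.18 and the others -3.23, -2.67 and -4.15. The last of these was replicate 5, which was not well above background for Slc15a3. Ikbkg, the regulatory subunit of the kinase that activates NF-kB, fell by 1.1 on its brightest probe (adjusted p = 0.00239), but its other tested probes differed by -0.57 and -0.0048 and did not pass. Rnf31 and Cyld, which add and remove linear ubiquitin in this pathway, differed by 0.39 and -0.47 in wild-type tracheas and did not pass. Their means in Myd88KO tracheas were 1.91 and -0.03 without injury and 1.57 and -0.18 after it. For Rnf31 the uninjured Myd88KO arrays overlapped neither the injured ones (3.45% of all probes) nor uninjured wild-type, with a mean of 1.46 (2.51%). Neither difference passed. The 3 other NLR genes tested, Ciita, Nlrc3 and Nlrx1, differed by 0.63, 0.35 and 0.35 after injury in wild-type tracheas and did not pass.

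**Figure D4:**
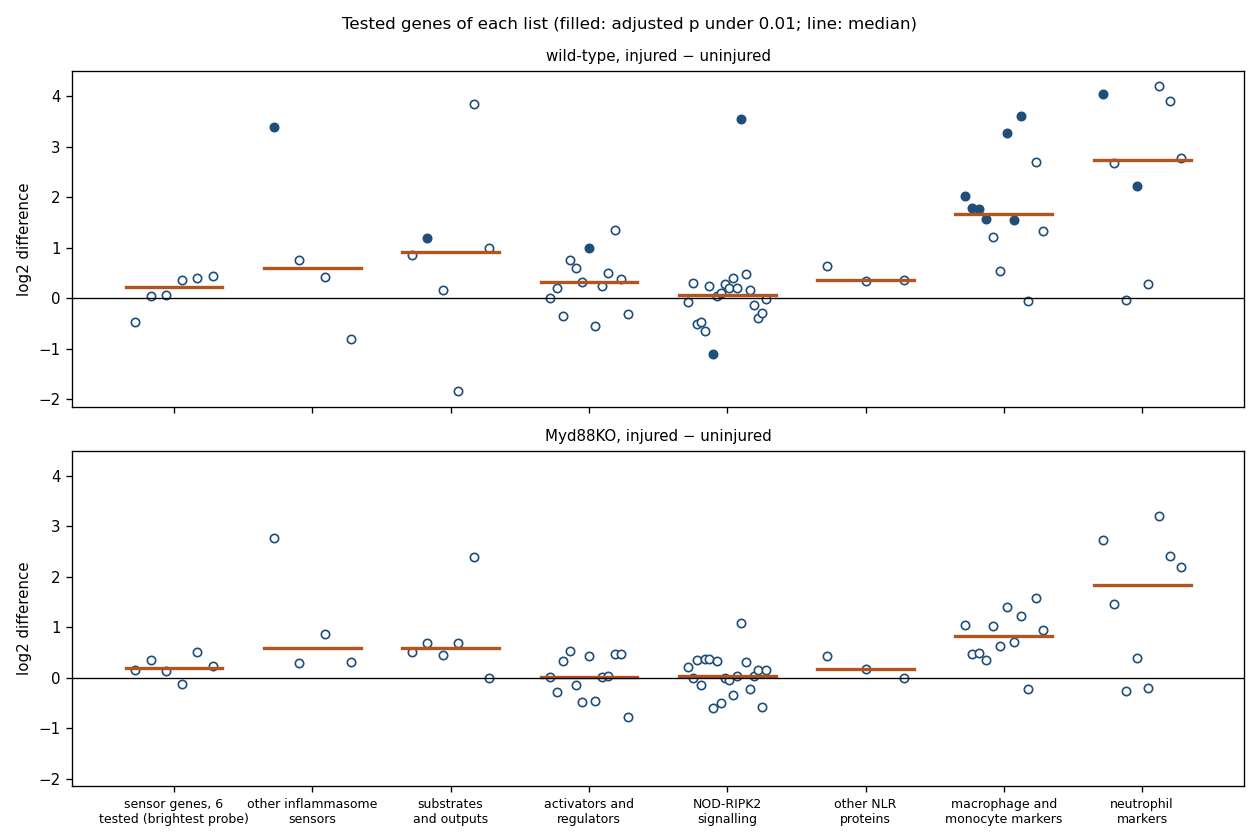
Log2 difference after injury (y axis) of every tested gene in 8 lists (x axis), in wild-type (top) and Myd88KO (bottom) tracheas. Filled points passed an adjusted p of 0.01 by limma and lines are medians of the tested genes of a list. The medians are 0.22 and 0.20 for the 6 tested sensor genes and 1.67 and 0.83 for macrophage and monocyte markers. For the 8 tested of 12 neutrophil markers they are 2.73 and 1.83. These leave out Mmp8, Ngp, Camp and Elane, which did not pass the filter on dim probes. They include Csf3r, which was well above background on the fewest arrays that the filter lets through.

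Many of the genes above are expressed by myeloid cells, whose markers moved with injury. Of 12 macrophage and monocyte markers tested, 7 rose in wild-type tracheas (Adgre1, Cd68, Csf1r, C1qa, C1qb, C1qc and Fcgr1), where 5.26% of all probes were called. In Myd88KO tracheas 0 passed, where 0.376% of all probes were called. At an unadjusted p under 0.05 by limma there were 10 in wild-type (26.4% of all probes) and 6 in Myd88KO tracheas (19.5%). No probe of the array was called for the difference between injury responses. Without injured Myd88KO replicate 5, which had the lowest mean of the macrophage and monocyte markers in its group, 0 passed in Myd88KO tracheas as well. Their mean log2 level ran from 0.53 to 1.11 on uninjured and from 1.97 to 3.24 on injured wild-type arrays, and from 0.48 to 1.46 and from 0.64 to 2.32 on the Myd88KO arrays. Of 12 neutrophil markers 8 were tested. In wild-type tracheas Csf3r and Mmp9 passed and rose, with 6 of the 8 at an unadjusted p under 0.05 by limma. In Myd88KO tracheas 0 passed, with 3 at an unadjusted p under 0.05. Csf3r was well above background on 10 of the 20 arrays, the fewest that the filter lets through. Its mean was -4.29 on uninjured and -0.24 on injured wild-type arrays, and -6.19 and -3.46 on the Myd88KO arrays. Without injured Myd88KO replicate 5, the count of neutrophil markers that passed in Myd88KO tracheas was 2. In wild-type tracheas 0 passed when uninjured replicate 2, or injured replicate 1 or 5, was left out. Among the granule genes of the neutrophil list, Ngp and Elane were well above background on no array, Camp on 2, Mpo on 19 and Ltf on 20. The summed levels of both lists overlapped between groups. On uninjured and injured wild-type arrays they were 312 to 548 and 348 to 583 for the macrophage and monocyte list, and 347 to 612 and 481 to 659 for the neutrophil list. In Myd88KO tracheas the sums were 285 to 487 and 289 to 464 for the first list and 441 to 721 and 373 to 693 for the second. Lyz2 made up 91.1% of the first sum and Ltf 94.9% of the second, and both genes differed by under 0.1 after injury in wild-type tracheas. The sums therefore mostly follow these genes, and say little about the other markers or about the number of these cells. The part of these cells in the values of the members was not tested.

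The members did not move as 1 group across the 20 arrays. Pearson's r is given here as a description over arrays that share groups and slides. It was 0.99 between the Pycard probes, 0.72 and 0.73 between them and Nod2, 0.54 between Casp1 and Casp4, which are neighbours on chromosome 9, 0.37 between Nod1 and Nod2, and 0.44 or less in size for the rest. Among tested probes of other genes that could be named through RefSeq, those close to Pycard included Zbtb7a (0.93) and Il1r2 (0.90). Nod2 was closest to Zc3h12a (0.87), Cyth4 (0.87) and Tnf (0.87), and Nod1 to Ctsa (0.91), Grb2 (0.91) and Tpst2 (0.91). Casp4 was closest to Ptpn2 (0.93), Ly96 (0.93) and Snx2 (0.93), and Casp1 to 4930430F08Rik (0.88), Ifrd1 (0.88) and Mettl5 (0.85). Nlrp3, the dimmest tested member, had its closest neighbours at lower values, Kmt2e (0.75), Rapgef6 (0.75) and Ankhd1 (0.74).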

How the data were processed

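RNA from whole trachea was labelled with Cy3 and read on 20 one-colour Agilent arrays, 1 per mouse. Per the file headers the deposited intensity values came from Agilent Feature Extraction 9.5.1.1, with the local background subtracted and spatial trends removed but no scaling between arrays. The value table the authors deposited holds the same signals, within 1% for 100% of values. There were 45018 spots on an array, 1639 of them controls, and 57.5 to 67.8% of the others were well above background. Arrays give no read depth, and their number limits the precision.

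Control spots and 1960 outlier values were left out, spots of a probe were averaged, and log2 of the processed signal was centred on the 75th percentile of each array. Probes well above background on 10 or more of 20 arrays (26063 of 41174) were fitted over all 20 arrays with limma 3.58.1 in R 4.3.3, without a block, and p-values were adjusted by Benjamini-Hochberg over all of them in each of 5 comparisons, with a threshold of 0.01. The study's methods give the same threshold for a screen in GeneSpring. The fit was tested on simulated data. Groups came from the sample labels. Per the file headers the replicate number is the slide, each slide held 1 array of every group, and the 5 slides were scanned on 2 days. Replicates of a group correlated at 0.925 to 0.990 over tested probes.

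Genes were named from transcript accessions through RefSeq for 22951 probes, from symbols for 6659 and from older symbols for 3109, and 8455 kept the name on the array. The text names every member with all its probes, Myd88, up to 4 genes of each pathway list with the lowest adjusted p in any comparison, Il1b, Il18 and Gsdmd, and the 3 probes of other genes with the highest Pearson r to each member. Probes that kept the name on the array were left out of the search by Pearson r. Genes with several probes outside the members are given by the brightest. List genes that could not be tested, passing cell type markers and the genes that make up most of a summed level were named outside this rule. Some genes that meet the rule are not reported here. Members and lists were chosen with earlier results of these data known. Alternatives were other scaling, background correction, filters, blocks, samples, array weights, the deposited value table, the methods' one-way test and leaving out each array.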

Additional observations from a re-analysis of the deposited data

Results flagged for a closer look

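Over 116 sets of 5 arrays, each a gene in a group, the highest or lowest array stood further from its neighbour than Dixon's 95% limit for 5 values (0.71 of the range) in 8. Chance alone would do so in about 1 set in 20. No member probe was among them. On the scale of log2 levels, uninjured wild-type replicate 3 was high for Il18 (2.12) and Nlrp10 (0.71). Injured wild-type replicate 4 was low for Il18 (-0.61) and replicate 2 stood apart for Ikbkg at -1.61. Uninjured Myd88KO replicate 4 read -1.58 for Ciita and replicate 3 read 2.63 for Panx1. Injured Myd88KO replicate 5 read 0.85 for Gbp2 and replicate 1 read -4.85 for Nlrc3.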

How the results depend on the processing

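None of the 7 member probes passed the threshold under any alternative, and the lowest adjusted p reached was 0.0181, for Nod1 after injury in wild-type tracheas with scan day as a block. With the slide (replicate number) as a block no member call changed, and the adjusted p of Nod1 in that comparison was 0.0294. Same-numbered arrays of different groups had correlated deviations from their group means (r from -0.26 to 0.48, over 0.1 in 23 of 30 pairs, against 35 of 120 other pairs), which falls short of every pair. Differences that changed direction were 0.28 or less in size as reported, except that of Nlrp10 after injury in wild-type tracheas (-0.81), and the cause was not tested. Scaled to the median, Ninj1 and Nlrx1 differed by 0.042 and 0.040 after injury in Myd88KO tracheas. After quantile normalization these were 0.025 and 0.0013, and Casp4 in wild-type tracheas was -0.0040. With normexp background correction Nlrp3 differed by -0.029 after injury in wild-type and -0.012 in Myd88KO tracheas, and by -0.016 between uninjured genotypes. With array weights, which gave replicates 1 and 5 of the injured Myd88KO group 0.31 each, Casp1, Ninj1 and Nlrx1 differed after injury in Myd88KO tracheas by -0.027, 0.22 and 0.20, and the responses of Nlrp3 by -0.068. Leaving out 1 array at a time gave, for injury in wild-type tracheas, -0.18 to 0.24 for Casp4, -0.071 to 0.25 for Nlrp3, -1.09 to 0.00997 for Nlrp10 and -0.074 to 0.80 for Il18. For injury in Myd88KO tracheas it gave -0.054 to 0.15 for Panx1, -0.22 to 0.18 for Ninj1 and -0.19 to 0.29 for Nlrx1. Between uninjured genotypes it gave -0.44 to 0.013 and -0.41 to 0.052 for the Pycard probes and -0.000027 to 0.23 for Nlrp3, and between injured ones -0.37 to 0.044 for Casp4 and -0.023 to 0.30 for Nlrp3. For the difference between responses it gave -0.12 to 0.20 for Nlrp3 and -0.058 to 0.32 for Nod2. On the brightest probe of each gene, Gsdmd, Irf8, Slc15a3 and Ikbkg in wild-type tracheas passed under all alternatives run. Other tested probes of Irf8 and Ikbkg did not pass in the fit reported above, so these calls depend on the probe. In wild-type tracheas Mefv passed under 30 of 31 (adjusted p = 0.0106 by the methods' one-way test). Of the genes that missed the threshold there, Pstpip1 passed under 5 of 32, Il1b under 4 of 31 and Ninj1 under 1 of 32, with lowest adjusted p of 0.00102, 0.00504 and 0.00836. In Myd88KO tracheas Gsdmd and Mefv passed with array weights or without injured replicate 5, and Ikbkg with array weights. Over all probes, injury called 665 to 1843 in wild-type and 6 to 1075 in Myd88KO tracheas with 1 array left out, the highest of each without injured Myd88KO replicate 5, against 1372 and 98. Under the other alternatives these were 1049 to 2630 and 0 to 2088, those between genotypes were 46 to 179 (uninjured) and 21 to 136 (injured), and that for the difference between responses was 0 to 3. The one-way test and the fit of only the groups compared were not run for that difference, and Nlrp3, Slc15a3, Il1b, Mefv and Nlrc3 had no value when all 20 arrays had to be well above background. Signal over background limits Nlrp3 and Ripk2 most.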
